A study of Arabidopsis thaliana with 10 samples.

Results

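The strong sites described here are places on the nuclear chromosomes of Arabidopsis thaliana where chromatin of 2 lines expressing YFP-LIMYB, L1 and L4, gave overlapping peaks that each had a fold enrichment of at least 15. They were chosen by their folds, with an overlap of at least 1 bp on chromosomes 1 to 5. The rule found 473 pairs of peaks among 4324 overlapping pairs (10.9%). They take up 4.93% of the 9604 nuclear peaks of L1 and 5.28% of the 8952 nuclear peaks of L4. Each of the 473 peaks of either line was in exactly 1 strong pair. The remaining 3851 overlapping pairs, in which at least 1 fold was under 15, are called the other pairs.

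The series holds chromatin immunoprecipitation sequencing (ChIP-seq) of whole seedlings from LIMYB overexpression lines, made with an anti-GFP antibody that takes up the yellow fluorescent protein tag. L1 has 2 samples, L4 has 4 and the remaining line, L3, has 4, all with the same transgene, tissue and antibody. In L3 and L4 the titles give only the replicate numbers 1 and 2, each with 2 suffixes, so these 4 samples may be 2 replicates in 2 sets. Seedlings had grown for up to 12 days on Murashige and Skoog plates and were crosslinked with formaldehyde before nuclei were isolated. The samples include no control immunoprecipitation, input DNA or untransformed plants. The promoter of the transgene is not given in the sources used here, nor is it stated whether the lines are independent insertions or what LIMYB-32 in the sample titles stands for. A site shared by L1 and L4 may therefore not come from separate transgene insertions.

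LIMYB is a MYB-domain protein that acts in the nucleus together with the ribosomal protein RPL10, downstream of the receptor kinase NIK1. This antiviral pathway of plants is known for lowering the expression of genes of the translation machinery. In ChIP-seq, fragments of crosslinked DNA pile up where the tagged protein is held on chromatin, directly or through a partner. The summit is the position with the highest pileup. Fold enrichment sets the pileup at the summit against a background, whose definition the file headers do not give.

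Pileup, fold and q-value are the authors' own values, with 1 deposited list per line and none per sample. No value of a peak carries a replicate error, no test between the lines was possible, and the depth of each sample is unknown. L3 had 12 peaks, none of them nuclear, so it could not take part in a nuclear pair. Of 131 overlapping L1 and L4 pairs on the organelle genomes, 0 had a fold of at least 15 in both lines.

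Folds of the strong sites ran from 15 to 36.2 in L1 with a median of 18.6, and from 15.1 to 41.6 in L4 with a median of 22.1. The other pairs had medians of 9.4 in L1 and 11.7 in L4. These differences follow from the rule and are a description. The fold was the higher one in L4 at 356 of the 473 strong sites and in L1 at 117. Among the other pairs it was higher in L4 at 2803 and in L1 at 1045. Both folds reached 20 in 140 pairs, 25 in 41 and 30 in 12.

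**Figure D1:**
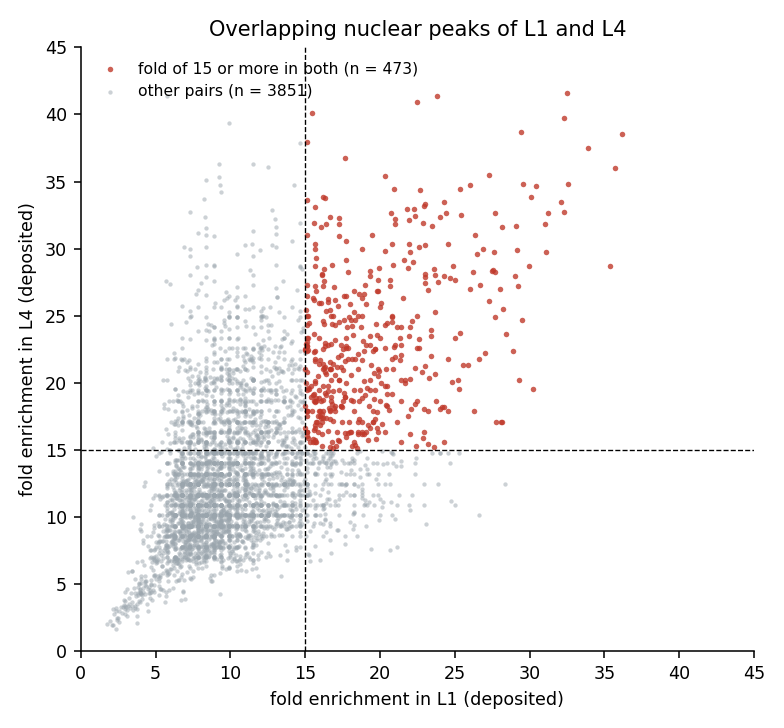
Deposited fold enrichment in L1 (x axis) and L4 (y axis) for each overlapping nuclear pair, 1 point per pair, with dashed lines at 15. The 473 strong sites (red) fill the upper right corner, most of them between 15 and 30 in both lines, and the 3851 other pairs (grey) lie outside it.

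A cut at a fold of 15 fell on the 2 lists differently. In L1, 833 nuclear peaks (8.67%) reached it, and in L4, 2215 did (24.7%). Of the 833 in L1, 473 (56.8%) were in a strong pair, 240 (28.8%) met an L4 peak under 15 and 120 (14.4%) met no L4 peak. The 240 weaker L4 partners had a median fold of 12.45. Of the 2215 in L4, 473 (21.4%) were in a strong pair, 951 (42.9%) met an L1 peak under 15 and 791 (35.7%) met no L1 peak. The median fold of the 951 weaker L1 partners was 10.4. Just inside the cut were the pairs of AT4G06639 (15 in L1, 16.67 in L4), AT1G67330 (15 and 22.44) and PAP26 (15 and 21.03). Just outside it were AT2G07749 (14.98 and 15.22), AT1G19930 (14.96 and 22.22) and TLP8 (20.16 and 14.95).

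Behind these folds stood modest numbers of fragments. The strong sites had a median pileup of 45 fragments in L1 (range 29 to 220) and 38 in L4 (range 20 to 213), where the other pairs had medians of 22 and 19. In neither list did a fold exceed the pileup divided by a fixed number, 1.92 in L1 and 1.28 in L4, within 0.5%. Along that upper bound 1 fragment was worth 0.52 fold units in L1 and 0.78 in L4. A fold of 15 thus took no fewer than 29 fragments in L1 and 20 in L4. The 95% exact Poisson interval of a count of 29 is 19.4 to 41.6, that of 20 is 12.2 to 30.9, and at the median pileups the intervals are 32.8 to 60.2 and 26.9 to 52.2. These intervals cover counting error only. Near the cut, which pairs count as strong thus lies within counting error.

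The bound also set the spacing of the values. In L1, 96 of the strong sites (20.3%) sat on it, against 1533 of the other pairs (39.8%), and in L4, 110 (23.3%) against 1532 (39.8%). Identical folds recurred: 16 strong sites had an L1 fold of 15.14 and 13 had one of 15.66, and 13 had an L4 fold of 17.9 and 12 one of 16.35. A high pileup alone did not give a strong site. Among pairs with a pileup of at least 100 in both lines, 12 were strong sites, with median folds of 29.98 in L1 and 34.7 in L4. Another 46 were not strong sites, with median folds of 3.78 and 4.255.

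**Figure D2:**
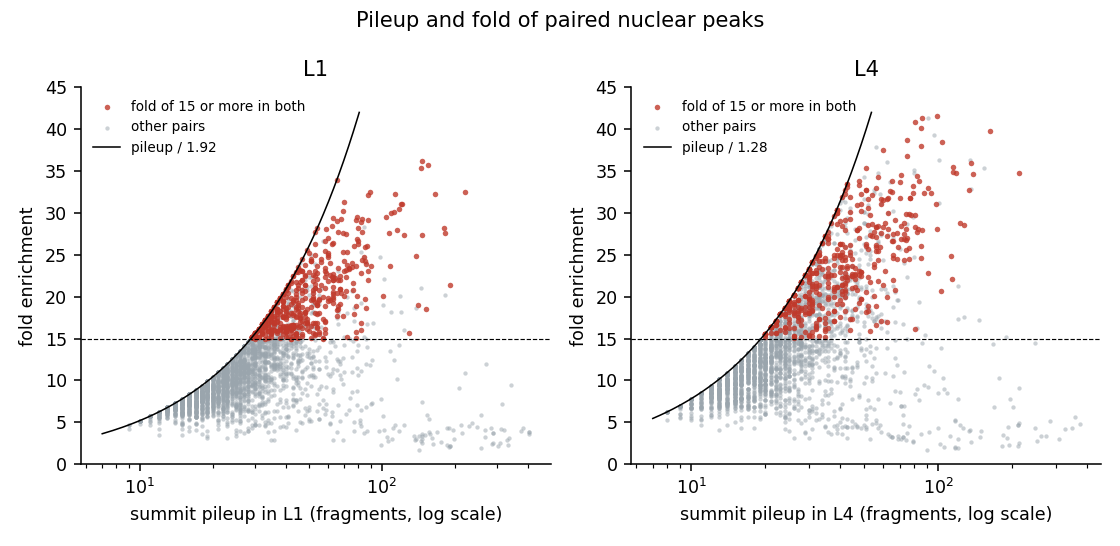
Pileup at the summit (x axis, fragments, log scale) and fold enrichment (y axis) of the paired peaks, for L1 on the left and L4 on the right. The curve is the pileup divided by 1.92 in L1 and by 1.28 in L4; no point lies above it beyond rounding, and the strong sites (red) begin at 29 fragments in L1 and 20 in L4, while other pairs (grey) with high pileup and low fold run along the bottom right.

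The 2 peaks of a strong pair marked nearly the same position, which follows in large part from the rule that they overlap. Their summits lay a median of 17 bp apart (quartiles 6 and 35, largest 195), and those of the other pairs 24 bp (quartiles 9 and 53, largest 1202). A distance of at most 10 bp was seen in 172 strong pairs (36.4%) and 1127 other pairs (29.3%), and at most 50 bp in 415 (87.7%) and 2813 (73.0%). Strong peaks were a median of 299 bp wide in L1 and 307 bp in L4, and shared 278 bp. In the other pairs the widths were 240 and 248 bp, and the shared length 209 bp. The pileups of strong sites were also higher, as given above, and their part in the summit distance was not tested. The 2 peaks were assigned to the same gene in 469 strong pairs (99.2%) and 3814 other pairs (99.0%). Overlapping peaks mostly have the same nearest gene, so this too is a description. In the 4 exceptions, the L1 and L4 genes were AT5G53330 and AT5G53320, AT1G06870 and AT1G06850, AT5G19730 and AT5G19729, and AT3G29310 and AT3G29305.

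**Figure D3:**
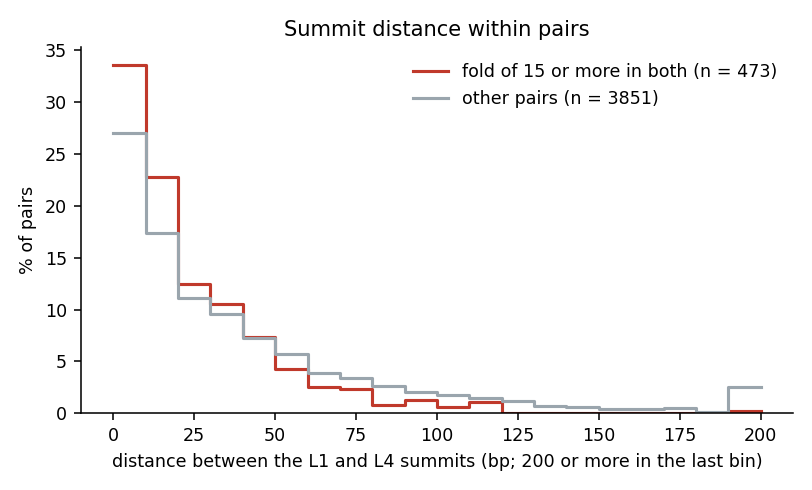
Percent of pairs (y axis) by the distance between the L1 and the L4 summit in steps of 10 bp (x axis), the last step holding all larger distances. Strong sites (red) exceed other pairs (grey) below 20 bp and fall under them beyond 50 bp, with medians of 17 and 24 bp.

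The sites with the highest folds in both lines were not promoter sites. By the lower fold of each pair, the first 12 comprised 6 upstream of the assigned gene by more than 1000 bp, 3 downstream, 2 across a 3′ end and 1 inside a gene. First came a site at AT5G37890, a SINA-like gene by its synonym SINAL7, and reached 36.2 in L1 and 38.5 in L4. It lay on chromosome 5 at 15084069 to 15084447, 6020 bp beyond the gene's 3′ end. Next were a site 1357 bp upstream of AT5G03880, with 35.7 in L1 and 36.0 in L4, and one 3876 bp upstream of AT5G67640, with 33.9 and 37.5. None of the 3 lay within 1000 bp of the 5′ end.

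CYCD4;1, a D-type cyclin that promotes entry into the cell cycle, had the highest pileups of all strong sites, 220 fragments in L1 and 213 in L4. Its folds were 32.5 in L1 and 34.8 in L4 on chromosome 5 at 26146646 to 26147025. Both summits lay upstream of the gene, at 2842 bp in L1 and 2844 bp in L4. ASL9, a LOB domain gene, had 32.3 and 32.8 on chromosome 1 at 5654036 to 5654418, with summits 1352 and 1364 bp upstream. The 2 lines thus placed these summits 2 and 12 bp apart.

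PERK8, a proline-rich receptor-like kinase, had 32.3 in L1 and 39.8 in L4 inside the gene, on chromosome 5 at 15439647 to 15440028. AT1G74730 had 32.5 in L1 and the highest L4 fold of all strong sites, 41.6, across its 3′ end on chromosome 1 at 28079761 to 28080110. NMD3, which encodes a nuclear export adaptor of the large ribosomal subunit, had 32.1 and 33.5 across its 3′ end on chromosome 2 at 1164739 to 1165026. Its pileup was 88 in L1 and 43 in L4. PRB1, a basic pathogenesis-related protein gene, had 30.4 and 34.7 at a site 4444 bp downstream. PMAT2, a phenolic glucoside malonyltransferase gene, had 30.1 and 33.9 at a site 3676 bp upstream. AT3G28850 (31.25 in L1, 32.7 in L4, downstream) and AT3G05155 (31.0 and 31.8, upstream) complete these 12.

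Across all 473 strong sites, positions relative to the assigned gene had shares broadly similar to those of the other pairs. Upstream lay 185 (39.1%, 95% Wilson interval 34.8 to 43.6), against 42.8% of the other pairs (41.3 to 44.4). Inside the gene lay 128 (27.1%, 23.3 to 31.2), against 23.0% (21.7 to 24.4). Across the 5′ end lay 22 (4.65%, 3.09 to 6.94), against 5.22% (4.56 to 5.97), and across the 3′ end 42 (8.88%, 6.64 to 11.8), against 8.0% (7.18 to 8.9). Downstream lay 95 (20.1%, 16.7 to 23.9), against 20.8% (19.5 to 22.1), and 1 peak spanned the whole of AT3G61117. For each of these 5 positions the intervals of the strong sites and the other pairs overlapped, which does not show that the shares are equal. Among the 140 pairs with a fold of at least 20 in both lines, 34.3% were upstream and 16.4% touched the promoter window defined below. The intervals cover counting error only, and neighbouring regions are not independent.

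**Figure D4:**
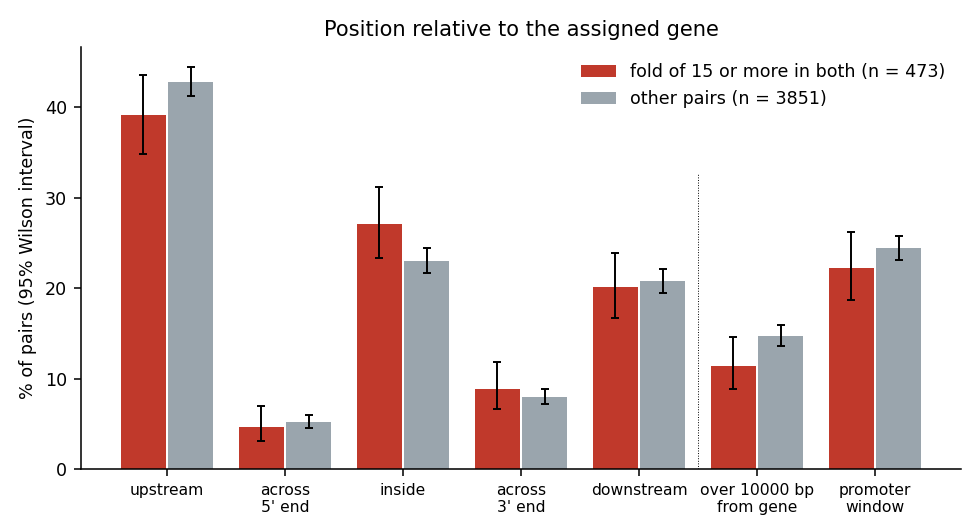
Percent of pairs (y axis) in each position relative to the assigned gene, for the 473 strong sites (red, left bar) and the 3851 other pairs (grey, right bar), with 95% Wilson intervals; the 2 classes after the dotted line are counted separately and overlap the first 5. In every class the intervals overlap, which does not show that the shares are equal.

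A promoter window, reaching from 1000 bp before the 5′ end to 100 bp past it, was touched by both peaks at 105 strong sites (22.2%, 18.7 to 26.2) and in 24.4% of the other pairs (23.1 to 25.8). More than 10000 bp from the assigned gene lay 54 strong sites (11.4%, 8.86 to 14.6) and 14.7% of the other pairs (13.6 to 15.9). With genes divided into 3 equal lengths, 44 of the sites inside genes (34.4%) lay in the 5′ stretch, 58 (45.3%) in the middle and 26 (20.3%) in the 3′ stretch. In the other pairs these shares were 29.9%, 48.7% and 21.4%.

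Among sites in the promoter window, LSM8, a subunit of the nuclear Sm-like RNA-binding ring, had 27.5 in L1 and 28.3 in L4 with summits 639 and 656 bp upstream. PHO2, an E2 ubiquitin-conjugating enzyme that restrains phosphate uptake, had 26.5 and 29.6 on chromosome 2 at 14282875 to 14283131. Its summits were 30 and 7 bp inside the 5′ end. SWEET11, a sucrose efflux transporter of the phloem, had 24.5 and 30.4 on chromosome 3 at 18054780 to 18055040. Its summits lay 188 bp upstream in L1 and 106 bp in L4.

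TRP1, an enzyme of tryptophan synthesis, had 23.2 in L1 and 26.9 in L4 with summits 274 and 282 bp upstream. RFC1, a replication factor C subunit, had 22.6 and 30.1 with summits 478 and 453 bp upstream. NRPB6B, an RNA polymerase subunit gene, had 21.9 and 30.4 with summits 271 and 289 bp upstream, and ATRER1C1 had 23.5 and 31.7 across the 5′ end. Without a symbol of their own, AT5G01080, AT2G37120, AT5G47250, AT2G11773, AT1G49940, AT5G65860, AT2G25460 and AT5G55450 had L1 folds of 21.35 to 28.9 and L4 folds of 22.4 to 35.5. In 25 strong pairs both summits lay within 250 bp upstream of the 5′ end. Most promoter-window sites thus had summits farther out or past the start.

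Strong sites were spread over the genome. Chromosomes 1 to 5 held 117, 84, 103, 67 and 102 of them, or 24.7%, 17.8%, 21.8%, 14.2% and 21.6%. In the other pairs the shares were 23.8%, 17.8%, 19.3%, 16.9% and 22.2%, and for each chromosome the 95% Wilson intervals overlapped. Of 240 bins of 500000 bp that held any pair, 199 held a strong site, with a median of 2. The most, 8 of 42 pairs, were on chromosome 1 at 15500001 to 16000000, and 7 of 22 pairs were on chromosome 3 at 9000001 to 9500000. The 7 included a site inside RIN4, a target of bacterial effectors in plant immunity, with 18.2 in L1 and 18.7 in L4.

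Neighbouring strong sites were a median of 156058 bp apart, and 13 of 468 distances were under 10000 bp. The closest neighbours, 2048 bp apart on chromosome 2, were IKU1 (16.1 in L1, 16.2 in L4), a regulator of seed size, and MORF6 (16.7 and 15.2), an organelle RNA editing factor. LSM8 and YSL7, a member of a metal-chelate transporter family, were 7454 bp apart. Several strong sites were assigned to the same gene in 12 cases, which took in 29 pairs. Most of these were distant assignments: AT4G06676 had 4 sites, 3 of them over 10000 bp away, and AT2G10260, AT3G33187 and AT5G31412 had 3 each, 2 of them that far. The farthest, 203583 bp from AT3G33187, had 16.02 in L1 and 21.7 in L4. The site with the highest lower fold among the 54 distant ones was assigned to AT2G12646 at 47598 bp, with 29.2 and 27.2.

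The lines gave some strong sites unequal folds. MGP, a zinc finger gene of root patterning, had 15.1 in L1 and 37.95 in L4 with pileups of 29 and 85. AT5G28500 had 15.4 and 40.1, AT4G01810 had 15.1 and 33.65, and SDG25, a SET-domain histone methyltransferase gene, had 15.7 and 33.1. The other way round, AT5G18630 had 28.2 in L1 and 17.1 in L4 with pileups of 54 and 22, AT2G12900 had 28.1 and 17.1, AT5G37070 had 27.7 and 17.1, and PTM, a plant homeodomain-type transcription factor gene, had 24.3 and 15.6. At SDG25 the pileups, 42 and 43, were nearly equal. These pairs were picked as the extremes of the ratio, and no test of the difference was possible.

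Strong sites were assigned to 448 of the 27432 nuclear protein-coding genes of the RefSeq table (1.63%), and any overlapping pair to 3448 (12.6%). Among the 10363 genes with a symbol of their own, the shares were 1.49% (154 genes) and 12.9% (1333 genes). Gene groups were formed from symbols and synonyms with the values in view, so their counts are a description beside these backgrounds. A group share above a background was not tested and is no sign of enrichment. Genes without a recognised name are missing from the groups.

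Genes of the pathway itself and of the translation machinery that were recognised by name were not among the strong sites. Of 7 genes for NIK1 and its relatives, RPL10 proteins and LIMYB, 0 had a strong site. LIMYB itself (AT5G05800) had a pair that was not a strong site, at 6.15 in L1 and 13.3 in L4. Its summits lay 476 bp apart, against a median of 24 bp in the other pairs, so the 2 lists marked different positions there. Of 59 cytosolic ribosomal protein genes recognised by name, 0 had a strong site and 5 had any pair (8.47%). Of 28 translation initiation factor genes recognised by name, 0 had a strong site and 1 had any pair (3.57%). Genes of these kinds without a recognised name were not counted, so the shares hold for the named ones only. With groups this small, a share of 1.63% would give about 1 gene or fewer, so these counts of 0 cannot be told apart from the background.

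Photosynthesis genes of the groups below held 5 strong sites. Of 49 photosystem and antenna genes, 17 had any pair and 1 a strong site (2.04%, near the background of 1.63%). This was PSBP-2, a PsbP-type protein gene of photosystem II. It had 16.2 in L1 and 24.6 in L4 with summits 218 and 273 bp upstream. Among 15 genes for electron carriers and the plastid ATP synthase, 9 had any pair and 2 a strong site (13.3%, against 1.63%). FED A, a leaf ferredoxin, had 16.3 and 28.5 across its 5′ end with summits 137 and 133 bp upstream, and ATPD, the delta subunit of the ATP synthase, had 15.1 and 22.3 downstream. Among 19 Rubisco small subunit and chlorophyll synthesis genes, 4 had any pair and 2 a strong site (10.5%, against 1.63%). G4, chlorophyll synthase, had 19.1 and 25.9 across its 5′ end with summits 88 and 105 bp upstream. RBCS1A, a Rubisco small subunit, had 18.35 and 24.65 inside the gene. In all 5 the L4 fold was the higher one, as it was in most strong pairs. Outside these groups, and chosen after its values were seen, CAO (AT2G47450), the chloroplast signal recognition particle protein CPSRP43 by its synonyms, had 15.7 in L1 and 15.7 in L4 upstream.

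Transcription factor genes of 11 families held 28 strong sites. Of their 560 recognised genes, 28 had a strong site (5%) and 115 any pair (20.5%). Among all nuclear protein-coding genes with a symbol of their own these shares were 1.49% and 12.9%. The counts of single families below stand beside the same backgrounds. Of the 28 sites, 16 lay inside the gene (57.1%, 39.1 to 73.5), against 38 of 94 other pairs of these genes (40.4%, 31.1 to 50.5). Of the 445 strong sites at all remaining genes, 112 lay inside (25.2%, 21.4 to 29.4). These remaining sites hold most of the 54 strong sites over 10000 bp from the assigned gene, which cannot lie inside it. Basic helix-loop-helix and homeobox genes had been planned but were not among the 11 families. The families were grouped after the values were seen, and no test was made.

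All 5 strong sites of NAC genes, among 100 recognised and 19 with any pair, were inside the gene. NAC038 had 31.1 in L1 and 29.8 in L4, NAC100 had 23.4 and 23.9, and NAC080 had 21.0 and 22.8. CUC3, which sets organ boundaries, had 23.0 and 27.9. NAC046, a promoter of leaf senescence, had 20.4 and 35.4. Among 55 AP2/ERF genes, 15 had any pair and 5 a strong site. ORA59, an integrator of jasmonate and ethylene defence signals, had 24.6 and 17.9 with summits 817 and 822 bp upstream, and ERF4, an ethylene-responsive repressor, had 16.2 and 27.2 downstream. ANT, which promotes organ growth, had 15.4 and 19.8 inside the gene. RAP2.9 (19.8 and 16.35, 17199 bp upstream in L1) and DEAR3 (17.65 and 16.2, downstream) were the other two.

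Among 50 bZIP genes, 12 had any pair and 3 a strong site. ABF3, an abscisic acid response factor, had 18.8 in L1 and 30 in L4 inside the gene, BZIP34 had 25.9 and 21.3 inside, and AT2G12900 (bZIP33 by its synonyms) is given above. GATA13 (27.6 and 29.8) and BME3 (18.1 and 18.8), a GATA factor of germination, were also inside, as were IDD11 (17.6 and 24.7) and MGP of the IDD zinc fingers. BBX21, a B-box factor of light signalling, had 20.8 and 25 inside. Of the NIN-like genes, known for nitrate responses, AT3G59580 had 15.3 and 15.6 inside and AT1G64530 had 15.2 and 22.5 upstream. NF-YC3 had 16.3 and 21.2 inside and NF-YC9 had 17.7 and 20 upstream.

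Of 72 WRKY genes, 12 had any pair and 2 a strong site, WRKY67 (16.1 in L1, 25.9 in L4) across the 5′ end and WRKY14 (15.97 and 16.8) inside. Of 125 MYB genes, 24 had any pair and 2 a strong site, MYB108 (15.7 and 16.9) and MYB117 (15.6 and 26.2), both downstream. For MYB genes the strong share, 1.6%, was close to the background of 1.63%. LBD14 joined ASL9 among 40 LOB domain genes with 20.5 and 18.3 upstream. Chosen after their values were seen, other developmental regulators with sites inside the gene were ABI3 (17.2 and 31.8) and LEC2 (15.9 and 17.9), both master regulators of seed maturation, and BZR1 (20.1 and 16.9), the brassinosteroid response factor. They are examples outside the 11 families, and ungrouped regulators with strong sites at other positions were not counted.

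Cell division genes held 6 strong sites among 82 (7.32%, against 1.63% of all nuclear protein-coding genes). Any pair was found at 14 of the 82 (17.1%, against 12.6%). Besides CYCD4;1 and RFC1 these were CYCB1;4, a mitotic cyclin, with 28.2 in L1 and 31.6 in L4 downstream, and KRP6, a CDK inhibitor, with 15.7 and 21.6 inside. The replication licensing and initiation factors CDT1A (16.2 and 21.4) and MCM10 (16.1 and 17.4) had sites inside the gene.

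**Figure D5:**
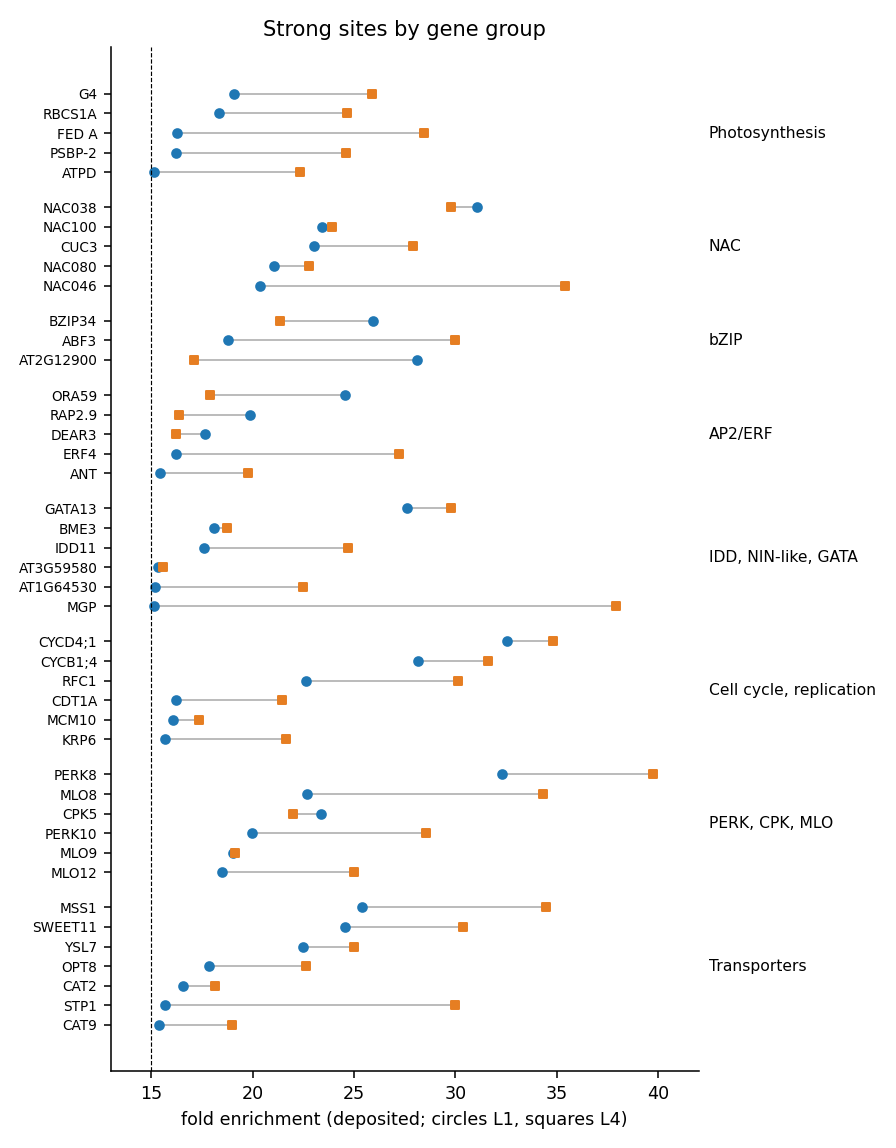
Deposited fold enrichment (x axis) of strong sites in 8 sets of gene groups, 1 line per site, with circles for L1 and squares for L4 and a dashed line at 15. PERK8, CYCD4;1 and NAC038 are near or above 30 in both lines, whereas MGP, at 15.1 in L1 and 37.95 in L4, has the widest gap.

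Surface receptors, calcium signalling and defence genes were represented by 1 to 3 genes of each family. Strong shares were 14.3% of PERK, 2.94% of CPK, 18.8% of MLO and 8.33% of JAZ genes, against a background of 1.63%. PERK10 joined PERK8 among 14 PERK genes with 19.9 in L1 and 28.6 in L4, and both sites were inside, 463 and 591 bp from the 5′ end in L1. CPK5, a calcium-dependent kinase of immune signalling, had 23.4 and 22.0 inside, 440 bp from the 5′ end in L1, and was the only strong site among 34 CPK genes, of which 11 had any pair. MLO genes, known for powdery mildew susceptibility, had 3 among 16. They were MLO8 (22.7 and 34.3) and MLO9 (19.0 and 19.1), both far upstream at 4591 and 9351 bp in L1, and MLO12 (18.5 and 25) inside. RLP46 (18.8 and 16.2, downstream) was the only strong site among 55 receptor-like protein genes (1.82%, near the background of 1.63%). JAZ5 (18.5 and 17.1, inside), a jasmonate signalling repressor, was the only one among 12 JAZ genes.

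The groups of sugar transporter genes and of amino acid and peptide transporter genes held 7 strong sites. Transporter genes of other kinds were not counted. Of 36 sugar transporter genes 3 had a strong site (8.33%, against a background of 1.63%). Besides SWEET11 they were the hexose transporters MSS1, with 25.4 in L1 and 34.45 in L4 at 5886 bp upstream in L1, and STP1, with 15.7 and 30 across the 3′ end. Of 29 amino acid and peptide transporter genes 4 had one (13.8%, against 1.63%). They were YSL7 (22.5 and 25), OPT8 (17.8 and 22.6), CAT2 (16.6 and 18.1) and CAT9 (15.4 and 19.0). The CAT genes encode cationic amino acid transporters.

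Cell wall and lipid genes included FLA11, a fasciclin-like protein of secondary walls, with 22.3 in L1 and 33.0 in L4, and AGP9, an arabinogalactan protein gene, with 25.2 and 20.2. Both sites crossed a 3′ end, and they were 2 among 50 such genes (4.0%, against a background of 1.63%). Of 21 KCS genes for elongation of very-long-chain fatty acids, KCS2 (18.7 and 19.5) and KCS10 (17.4 and 18.3) had sites inside (9.52%, against 1.63%). Of 234 cytochrome P450 genes 3 had a strong site (1.28%), which cannot be told apart from the background. Among them CYP78A5, a regulator of organ growth, had 29.0 and 28.0 inside, CYP71B21 had 20.4 and 22.6 and CYP77A4 had 20.4 and 19.8.

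Secreted peptide genes had 3 among 146 (2.05%), near the background of 1.63%. These were SCRL9 (24.4 in L1, 32.65 in L4), CLE18 (22.1 and 24.6) and IDL5 (18.6 and 26.6). Both genes of the ELF4 family of clock-related proteins that had any pair, out of 5, had a strong one (40.0%, against 1.63%). They were ELF4-L3 (21.9 and 28.6) and ELF4-L1 (17.4 and 21.2), the latter 791 bp upstream. The ELF4-L3 site lay downstream of the gene, 15624 bp from its 5′ end in L1. Of 60 phosphate homeostasis genes, PHO2 and the acid phosphatase gene PAP26 were the 2 with a strong site (3.33%, against 1.63%). The PAP26 site lay 23789 bp upstream in L1.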

How the data were processed

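The deposited data used here are 3 annotated peak lists, 1 each for L1, L3 and L4. The submitters' processing notes name MACS2. Not given in the sources used here are its settings, the aligner and build, the use of a control track and any pooling of replicates. Per the file headers, the authors deposited for each peak the pileup at the summit (a coverage signal in fragments), the fold enrichment (a ratio) and −log10 of the q-value, together with the nearest gene. Among strong sites the deposited −log10 q had medians of 38.15 in L1 and 34.6 in L4, and minima of 21.95 and 15.3.

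Peaks with several genes were counted once. Only chromosomes 1 to 5 were used. Pairs had to overlap by 1 bp and have a fold of at least 15 in both lines. Distances were measured between the summit and the assigned gene's 5′ end as listed, and the class comes from the L1 peak. Positions are those of the lists, whose gene limits equalled those of the RefSeq table for 1876 of 9817 matched genes (19.1%). Distances to a gene end therefore hold for the gene limits as listed. Names came from the RefSeq table of TAIR10.1, which held 449 of the 460 assigned identifiers. No sequence was used. Shares have 95% Wilson intervals and pileups 95% exact Poisson intervals, for counting error only. Named are the first 12 pairs and 15 promoter-window pairs by the lower fold, pairs at the threshold and at the extremes of the ratio, and members of 31 gene groups. The members and lists were chosen with earlier results of these data known, and the gene groups with the values in view. Pairing was tested on simulated data. Tables were made in Python 3.11.15 with pandas 2.3.3, numpy 2.4.6 and scipy 1.17.1, and plots with matplotlib 3.10.9.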

Additional observations from a re-analysis of the deposited data

Results flagged for a closer look

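L3 gave no nuclear peak, but 5 of its 12 peaks had a fold of at least 15 (15.8 to 22.5), all on the plastid genome. They are given because L3 enters no comparison above; there is no control sample to set them against.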

How the results depend on the processing

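The count of strong sites depends on the cut. A fold of at least 20 in both lines left 140 pairs, of which 34.3% were upstream, 2.86% crossed a 5′ end and 16.4% touched the promoter window, with a median summit distance of 12 bp. A fold of at least 12 gave 1033 pairs. A window from 2000 bp upstream to 200 bp downstream held 29.0% of strong sites, and requiring both summits in the promoter window left 18.2%. Of 58 values under the alternatives, 50 stayed within the interval or, for counts, within 1.5 times the value reported, and the 8 above did not. Several alternatives kept nearly the same pairs, so their values could hardly move. These were summits at most 100 bp apart (464 pairs remained), an overlap of 50% of both peaks (470 remained) and positions read from the L4 peak. The number of values that stayed is therefore no measure of stability. A minimum −log10 q of 10 could remove none and is not counted. Taking the upper 10% of folds of each list (14.5 in L1, 20.1 in L4), chosen after seeing the data, gave 319 pairs, 299 of them strong sites as defined above. This count stayed only through the allowance of 1.5 times. The cause of these shifts was not tested. No paired analysis was possible because the lists hold 1 value per line and none per replicate. The planned comparison of promoter motifs was not run, since no sequence was used. Counting error of 20 to 45 fragments limits the ranking of single sites.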
